A study of Rattus norvegicus with 192 samples.

Results

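Herpud1, Xbp1, Creld2 and Manf are 4 genes of the response to endoplasmic reticulum (ER) stress, and their mRNA was followed here in the brains of female rats after prenatal alcohol exposure and adjuvant arthritis. They were selected on their values in the prefrontal cortex of adjuvant rats at day 16, so those values are given below as a description and without a test. Every probe annotated with one of the 4 symbols was taken. Each gene has 1 probe, which makes 4 of the 22502 probes of the array. RNA was read on 192 Illumina rat BeadChip arrays, 96 per tissue, from the prefrontal cortex of 87 Sprague Dawley rats and the hippocampus of 84 of them, with 1 array per rat and tissue in the comparisons.

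The groups combine a diet of the mother, an injection and a time. Control dams ate laboratory chow. Ethanol dams had free access to a liquid diet that drew 36% of its calories from ethanol. Pairfed dams received a liquid diet with maltose-dextrin in place of ethanol, in the amount eaten by an ethanol partner. The diets were fed from gestation day 1 to 21, and the daughters carried no engineered allele. At 50 to 65 days of age the daughters were injected at the tail base with saline or with complete Freund's adjuvant, an inducer of arthritis, in a volume of 0.1 ml at 12 mg/ml, and the brain was taken 16 or 39 days later. In each tissue a saline group had 5 rats on day 16 or 6 on day 39. An adjuvant group had 9 rats. Only the day 39 hippocampus groups of control (8) and pairfed (7) daughters were smaller. No label gives the litter of a rat, so the tests treat rats as independent. Each chip carried 1 tissue, so tissue and chip cannot be told apart and levels of the selected genes were not compared between tissues.

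Proteins that enter the secretory pathway fold in the ER. When unfolded proteins accumulate there, the sensors IRE1, PERK and ATF6 start the unfolded protein response, which raises the mRNA of chaperones and of the machinery that degrades misfolded proteins. Xbp1 encodes a transcription factor of this response, and IRE1 splices its mRNA into the active form. No position of the Xbp1 probe relative to the spliced intron is given in the sources used here. Its level is therefore not assigned to the spliced form, the unspliced form or their total. Herpud1 encodes a membrane protein of the complex that degrades misfolded ER proteins. Creld2 encodes an ER-resident protein that takes part in disulfide bond formation. Manf encodes a small protein that binds the chaperone BiP in the ER, is secreted under stress and protects neurons.

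The promoters of these genes are shown because ATF6 and XBP1 act on named DNA elements in them. RefSeq promoter sequences of the rat build GRCr8, each running from 250 bases before the start to 50 after it, matched 3 of the 4 genes. They are written 5′ to 3′ on the strand of the gene. Capitals mark the fixed letters of the ER stress element (ERSE, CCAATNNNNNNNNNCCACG) or of ERSE-II (ATTGGNCCACG), searched on both strands. The Herpud1 promoter lies at chr19:10614658-10614957, minus strand, that of Xbp1 at chr14:84604373-84604672, plus strand, and that of Creld2 at chr7:121789134-121789433, plus strand.
Herpud1: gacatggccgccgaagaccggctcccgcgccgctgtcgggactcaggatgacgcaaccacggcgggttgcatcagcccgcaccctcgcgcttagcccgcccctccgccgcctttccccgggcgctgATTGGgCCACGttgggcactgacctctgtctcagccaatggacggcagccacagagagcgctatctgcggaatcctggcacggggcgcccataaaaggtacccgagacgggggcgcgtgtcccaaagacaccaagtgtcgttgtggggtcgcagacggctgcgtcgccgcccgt
Xbp1: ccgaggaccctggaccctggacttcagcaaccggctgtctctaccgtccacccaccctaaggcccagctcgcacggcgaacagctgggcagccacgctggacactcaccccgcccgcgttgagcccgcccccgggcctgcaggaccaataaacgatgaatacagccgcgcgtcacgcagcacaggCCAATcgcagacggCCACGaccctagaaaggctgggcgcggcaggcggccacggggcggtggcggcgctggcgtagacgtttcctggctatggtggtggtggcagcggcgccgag
Creld2: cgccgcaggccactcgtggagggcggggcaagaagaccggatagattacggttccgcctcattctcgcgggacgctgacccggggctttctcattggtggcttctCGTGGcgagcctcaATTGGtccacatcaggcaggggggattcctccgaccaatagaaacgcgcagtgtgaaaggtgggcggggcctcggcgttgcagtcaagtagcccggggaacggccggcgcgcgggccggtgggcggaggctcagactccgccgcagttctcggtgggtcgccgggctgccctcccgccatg
The Herpud1 promoter held 1 ERSE-II on the strand of the gene, which began 124 bases before the start. The Xbp1 promoter held 1 ERSE on the strand of the gene, 65 bases before the start. The Creld2 promoter held 1 ERSE on the other strand, which began 145 bases before the start and reads CGTGGcgagcctcaATTGG on the strand of the gene. Of 33469 promoters in the table, 22 held an ERSE (0.0657%) and 17 an ERSE-II (0.0508%). Their short outer parts alone were common, with CCACG in 31.6% and CCAAT in 37.5% of the promoters. The unfolded protein response element TGACGTGG was in 0.595% of them and in none of these 3 windows. A match is a string of letters and no measure of binding.

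The probes were detected in nearly all rats. A detection p-value compares a probe with the negative control probes of its array. Herpud1, Xbp1 and Manf had one below 0.05 on 87 of 87 prefrontal cortex and 84 of 84 hippocampus arrays, and Creld2 on 87 and 81. All 4 thus passed the filter that a probe be detected on at least 5 arrays, which 15250 prefrontal cortex and 15320 hippocampus probes passed. Levels are background-corrected, quantile-normalized log2(signal + offset) values, and a difference is followed by its standard error from the limma fit. A prefrontal cortex array detected 7578 to 10949 probes and a hippocampus array 8140 to 11235. The tissue markers Lamp5 (cortex) and Wfs1 and Calb1 (hippocampus) were detected on 86 or more prefrontal cortex arrays and on 84 of 84 hippocampus arrays. The mean level of Lamp5 was 12.44 on prefrontal cortex and 10.37 on hippocampus arrays, that of Wfs1 7.28 and 8.26 and that of Calb1 11.04 and 11.20. Prox1, a marker of the dentate gyrus, was detected on 57 of 84 hippocampus and 31 of 87 prefrontal cortex arrays. The cortex marker Rasgrf2 went the other way, detected on 11 of 87 prefrontal cortex and 24 of 84 hippocampus arrays. The hippocampus markers Lct (8 of 87 and 7 of 84) and Tdo2 (1 of 87 and 0 of 84) did not separate the tissues. These marker values are a description, since tissue and chip cannot be told apart. One prefrontal cortex array, pairfed saline day 16 replicate 3, matched its own rat's hippocampus array poorly. Over the 37 probes with the most alike values between the tissues of a rat, its correlation was 0.25 with its own rat and 0.76 with a rat whose prefrontal cortex is ethanol saline day 16 replicate 5, while 83 of 84 rats matched their own best. Other choices of probes (18, 27 or 49) gave 76, 82 and 83 rats, and this array failed to match under each. The array of ethanol saline day 39 replicate 2 detected the fewest probes, and results are given with and without these 2 arrays.

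All 4 genes had higher mean levels in adjuvant than in saline rats at day 16 in the prefrontal cortex, which is how the genes were chosen. Herpud1 ranged from 8.45 to 9.75 with a median of 9.03 in 27 adjuvant rats and from 7.52 to 9.02 with a median of 8.76 in 15 saline rats. The groups overlapped: 14 adjuvant rats lay above the highest saline rat and 25 above the saline mean. The difference over the 3 diets was 0.41 ± 0.13, or 1.33-fold. The transcription factor gene Xbp1 ran from 10.37 to 11.56 (median 10.97) in adjuvant and from 10.12 to 11.23 (median 10.55) in saline rats, a difference of 0.33 ± 0.12 with 7 adjuvant rats above every saline rat. Creld2 ran from 6.46 to 8.24 (median 7.52) and from 6.29 to 7.84 (median 7.32), a difference of 0.30 ± 0.11. Manf ran from 7.44 to 9.41 (median 8.78) and from 8.11 to 8.99 (median 8.56), a difference of 0.25 ± 0.13. For Creld2 and Manf 6 adjuvant rats each lay above every saline rat. By the size of this difference Herpud1 stood at place 97 of 15250 probes, Xbp1 at 216, Creld2 at 314 and Manf at 562. The adjusted p threshold of 0.05 was passed by 20 of the 15250 probes (0.131%) and by none of the 4 genes, and nothing is read from that, since the comparison chose them. Without the 2 arrays in doubt the differences were 0.43 for Herpud1, 0.35 for Xbp1, 0.31 for Creld2 and 0.24 for Manf. On the authors' deposited values the Creld2 difference was 0.17.

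**Figure D1:**
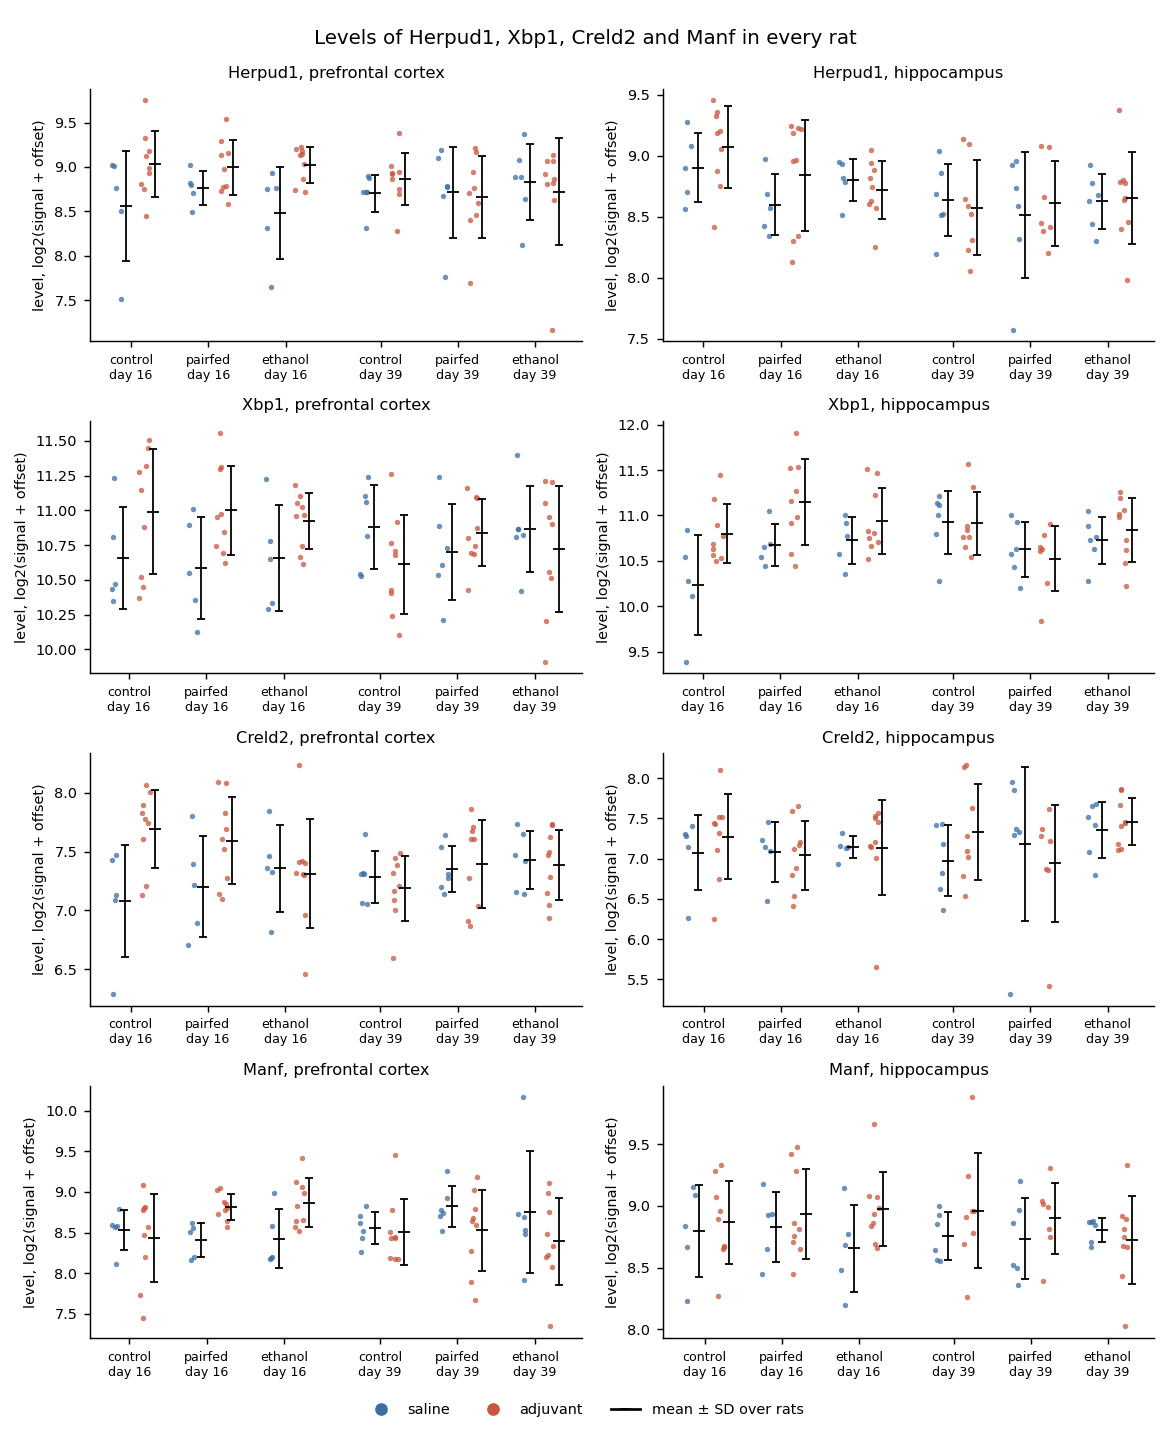
Each point is 1 rat: the y axis gives the level as log2(signal + offset), the x axis the diet and day, with saline in blue and adjuvant in red, and black bars show the mean ± SD of a group. At day 16 in the prefrontal cortex (left) the red mean lies higher in 10 of 12 gene and diet pairs and lower for Creld2 in ethanol and Manf in control rats, and points of both colours overlap in every panel.

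The higher mean was seen on most chips. In the prefrontal cortex these are the arrays that chose the genes, so the chip counts there are a description. The share of all probes higher on as many chips was not counted. Within a chip, Herpud1 was higher in the day 16 adjuvant rats on 8 of 8 prefrontal cortex chips, with differences from 0.03 to 0.77. Creld2 and Manf were higher on 7 of 8 chips and Xbp1 on 6 of 8. In the hippocampus 7 chips held both injections at day 16, and Herpud1 was higher on 4 of them and each of the other 3 genes on 5.

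**Figure D2:**
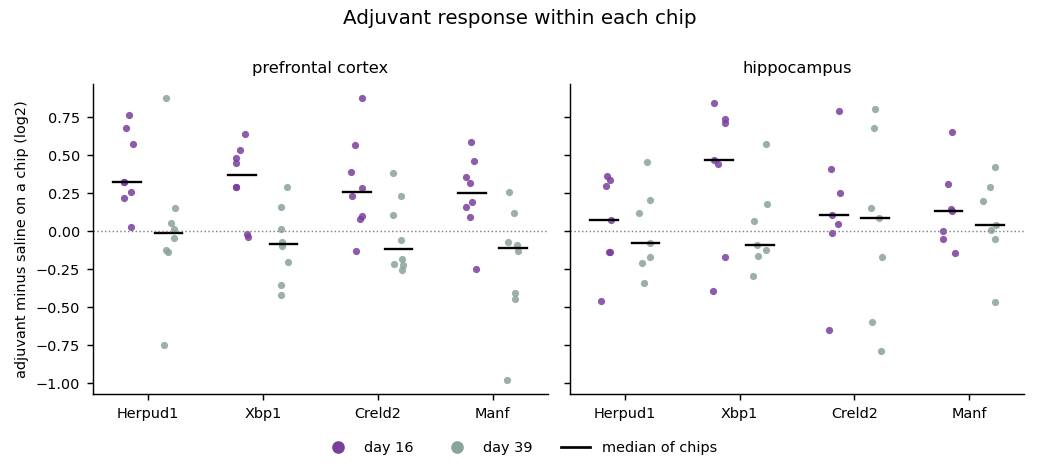
Each point is the mean level of the adjuvant rats minus that of the saline rats on 1 chip, in log2, and black lines are medians over chips. In the prefrontal cortex the day 16 points of Herpud1 all lie above 0, while the day 39 points lie on both sides of 0 for every gene.

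Creld2 and Manf were ordered differently over the diets in the prefrontal cortex at day 16. Creld2 in control rats had saline levels of 6.29, 7.08, 7.13, 7.43 and 7.48 and adjuvant levels from 7.13 to 8.07 (median 7.78), and 7 of 9 adjuvant rats lay above every saline rat. In ethanol rats its saline levels were 6.81, 7.32, 7.36, 7.46 and 7.84 and its adjuvant levels ran from 6.46 to 8.24 (median 7.32), with 1 of 9 above every saline rat. The difference was 0.53 ± 0.19 in control, 0.33 ± 0.19 in pairfed and 0.03 ± 0.19 in ethanol rats. In control rats 2 of 5 saline rats lay below every adjuvant rat and in ethanol rats 0 of 5, so the Creld2 groups overlapped in both. These counts describe the arrays that chose the genes. The fit adjusts for chip, and the plain group means of Creld2 in ethanol rats gave -0.05 in place of 0.03. For Manf the control rats were at the other end. Its saline levels in control rats were 8.11, 8.57, 8.59, 8.60 and 8.79 and its adjuvant levels ran from 7.44 to 9.09 (median 8.57), which enclosed all of the saline values. In pairfed rats the saline levels were 8.17, 8.20, 8.51, 8.56 and 8.61 and 8 of 9 adjuvant rats lay above them. The Manf difference was -0.16 ± 0.24 in control, 0.46 ± 0.24 in pairfed and 0.43 ± 0.24 in ethanol rats. One control adjuvant rat, replicate 1, had 9 arrays, and the array compared here held the lowest of its 9 Manf levels (7.44, mean of the 9 arrays 8.65) and the highest of its 9 Creld2 levels (8.07, mean 7.37). With repeats averaged the control difference was -0.04 ± 0.23 for Manf and 0.46 ± 0.19 for Creld2. In the order of diets above, Herpud1 differed by 0.37, 0.33 and 0.52 and Xbp1 by 0.29, 0.40 and 0.29, each ± 0.20 to 0.22. Among all probes, 0.0328% were called in control rats, 0.0131% in pairfed rats and 0% in ethanol rats.

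The contrasts between diets in the prefrontal cortex at day 16 rest on the arrays that chose the genes and are also given without a test. The adjuvant difference in ethanol rats minus that in control rats was -0.50 ± 0.27 for Creld2 and 0.59 ± 0.34 for Manf. For Herpud1 the value was 0.15 ± 0.32 and for Xbp1 -0.0039 ± 0.29, and against pairfed rats the 4 values lay between -0.30 and 0.20. Among adjuvant rats alone, the ethanol minus control value of Creld2 was -0.35 ± 0.16, with 1 of 9 ethanol rats above the control mean. That of Manf was 0.44 ± 0.20, with 9 of 9 above it. With repeats averaged these were -0.28 ± 0.16 and 0.32 ± 0.19, and the contrasts of the adjuvant difference -0.44 ± 0.27 and 0.48 ± 0.32. Of all probes 0% were called in either comparison of ethanol with control rats. In the hippocampus, which did not choose the genes, the ethanol minus control value of Herpud1 among the adjuvant rats was -0.36 ± 0.16, with 0 of 9 above the control mean (unadjusted p = 0.0296 and adjusted p = 0.998 in limma). There an unadjusted p below 0.05 was reached by 4.51% of probes.

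In the hippocampus at day 16, a tissue that did not choose the genes but came from the same rats, Xbp1 showed the largest of the 4 differences. It ranged from 10.44 to 11.91 with a median of 10.82 in 27 adjuvant rats and from 9.39 to 11.05 with a median of 10.57 in 15 saline rats. The groups overlapped, with 10 adjuvant rats above every saline rat and 5 saline rats below every adjuvant rat, and 23 of 27 adjuvant rats lay above the saline mean. The difference was 0.41 ± 0.11, or 1.33-fold (95% interval 0.18 to 0.63). It ranked 26th of 15320 probes by p (unadjusted limma p = 0.000574) and did not pass the test after adjustment (adjusted p = 0.327). In that comparison 0.0587% of probes were called and 6.47% had an unadjusted p below 0.05. By diet the Xbp1 difference was 0.58 ± 0.19 in control, 0.47 ± 0.19 in pairfed and 0.17 ± 0.20 in ethanol rats. The control saline levels were 9.39, 10.11, 10.28, 10.54 and 10.84, and all 9 control adjuvant rats lay above their mean. The lowest of these, 9.39 in replicate 3, was the lowest Xbp1 level of all rats, and without it the difference over diets was 0.34 (adjusted p = 0.523). The ethanol minus control value of this difference was -0.41 ± 0.27 (95% interval -0.95 to 0.14, adjusted p = 1). With arrays scaled to a common median the Xbp1 difference was 0.14, or 0.25 above the median of all probes, which lay at -0.12.

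The other 3 genes differed less in the hippocampus at day 16. Manf was 0.16 ± 0.11 higher in adjuvant rats, with levels from 8.27 to 9.66 (median 8.86) against 8.20 to 9.18 (median 8.77). Its difference by diet was 0.07 in control, 0.09 in pairfed and 0.33 ± 0.19 in ethanol rats. Herpud1 differed by 0.10 ± 0.11, with levels from 8.12 to 9.46 (median 8.94) against 8.34 to 9.27 (median 8.79). The Creld2 difference was 0.07 ± 0.17, with levels from 5.65 to 8.10 (median 7.21) against 6.26 to 7.46 (median 7.15). The adjusted p of these 3 lay between 0.841 and 0.976, and scaling to the median turned each of the 3 below 0, as the hemoglobin covariate did for Creld2 (-0.086) and Manf (-0.0056). All 4 medians of adjuvant rats lay above those of saline rats, and the intervals of Herpud1, Creld2 and Manf reached from -0.26 to 0.40. By diet 0.00653% of probes were called in control and in ethanol rats and 0.0131% in pairfed rats, with none of the 4 genes among them.

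**Figure D3:**
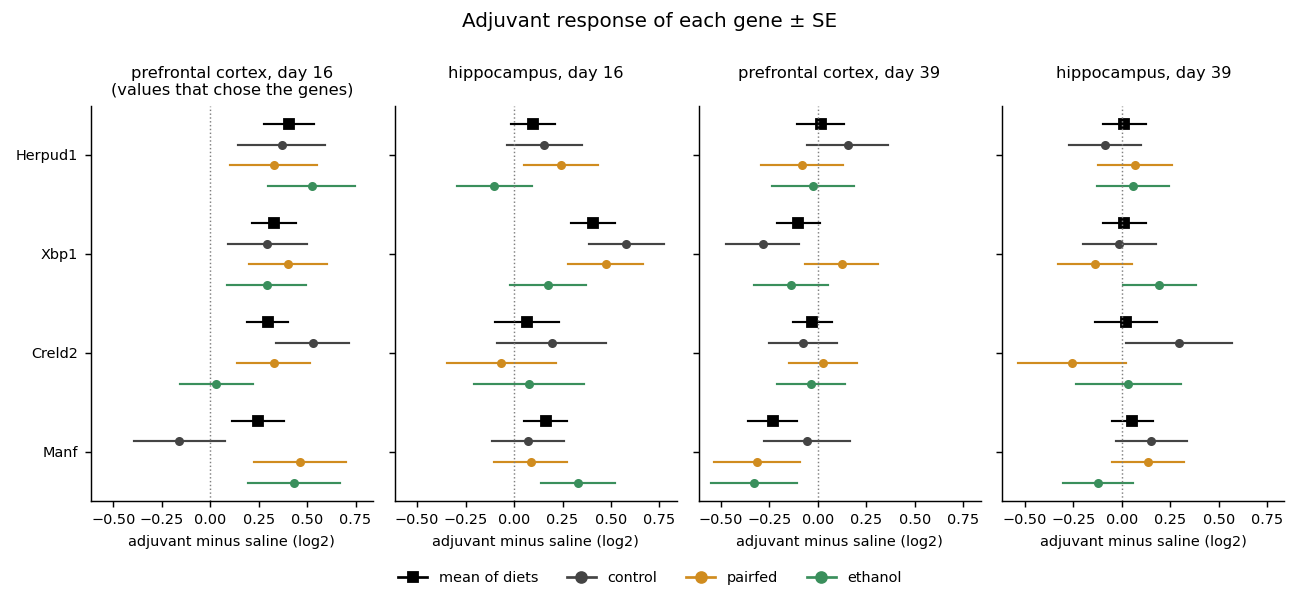
Adjuvant minus saline difference in log2 (x axis) for each gene in each tissue and day, over the diets (black squares) and within each diet (circles), with bars of ± 1 SE. Xbp1 has day 16 means over diets of 0.33 in the prefrontal cortex, whose values chose the genes, and 0.41 in the hippocampus. The day 39 means run from -0.23 to 0.05.

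At day 39 the differences lay closer to 0. In the prefrontal cortex Herpud1 ran from 7.17 to 9.38 (median 8.86) in 27 adjuvant rats and from 7.76 to 9.37 (median 8.78) in 18 saline rats, a difference of 0.02 ± 0.12 (95% interval -0.22 to 0.25). Xbp1 differed by -0.10 ± 0.11 and Creld2 by -0.03 ± 0.10. Manf was lower by -0.23 ± 0.13, with levels from 7.35 to 9.46 (median 8.45) against 7.92 to 10.16 (median 8.70), and 8 of 27 adjuvant rats lay above the saline mean (adjusted p = 0.949). Without the 2 arrays in doubt, of which ethanol saline day 39 replicate 2 holds the highest Manf level of 10.16, the Manf difference was -0.13. In the hippocampus the differences were 0.01 ± 0.11 for Herpud1 and for Xbp1, 0.02 ± 0.16 for Creld2 and 0.05 ± 0.11 for Manf, and with median scaling they lay between -0.21 and -0.15. No probe of the array was called in these means over diets (0% in either tissue), and 0.00656% of probes were called in pairfed prefrontal cortex. The Xbp1 difference in the hippocampus was lower at day 39 than at day 16 by -0.39 ± 0.16 (95% interval -0.71 to -0.08, unadjusted limma p = 0.0149, adjusted p = 0.999). The same contrast was -0.09 ± 0.16 for Herpud1, -0.05 ± 0.23 for Creld2 and -0.11 ± 0.15 for Manf. That comparison had 0% of probes called, and 3.8% had an unadjusted p below 0.05. In the prefrontal cortex the day 39 minus day 16 values, which hold the values that chose the genes, were -0.39 for Herpud1, -0.43 for Xbp1, -0.33 for Creld2 and -0.48 for Manf.

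No difference between prenatal diets passed the test in saline rats. Over both days, adjusted for chip, the ethanol minus control difference in the prefrontal cortex was -0.05 ± 0.17 for Herpud1, -0.04 ± 0.15 for Xbp1, 0.17 ± 0.14 for Creld2 and -0.0033 ± 0.18 for Manf. The plain means of Herpud1 (8.67 in ethanol and 8.64 in control rats) and Manf (8.61 and 8.55) lay the other way. In the hippocampus the values were -0.08 ± 0.15, 0.14 ± 0.15, 0.19 ± 0.22 and -0.05 ± 0.14 in the same order. The lowest adjusted p among these 8 values and the 8 against pairfed rats was 0.991, and 0% of probes were called. The prefrontal cortex values include the day 16 saline rats, which took part in the choice of the genes, so they are not independent of it. In all, 25 comparisons were tested, those of the hippocampus and those of the prefrontal cortex at day 39 or between saline rats of both days. They gave 100 values, of which 5 (5%) had an unadjusted p below 0.05 in limma, against a median of 5.03% of all probes over these comparisons. These 5 were all from the hippocampus. Xbp1 gave those at day 16 over the diets, in control and in pairfed rats, and that of day 39 minus day 16. Herpud1 gave the last, ethanol minus control among day 16 adjuvant rats. The comparisons share rats, so the 100 values are not independent. None of the 100 values passed the adjusted threshold, and the smallest adjusted p was that of Xbp1 in the hippocampus at day 16.

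The range of the 12 group means of a tissue was wider than the median SD of a group in 7 of the 8 pairs of gene and tissue, with Manf in the hippocampus the exception. With 12 means of 5 to 9 rats such a range can arise from the spread between rats alone, so it is a description. Herpud1 group means ran from 8.48 (ethanol saline day 16) to 9.03 (control adjuvant day 16) in the prefrontal cortex and from 8.52 (pairfed saline day 39) to 9.07 (control adjuvant day 16) in the hippocampus. In the prefrontal cortex the 3 highest Herpud1 means were those of the 3 adjuvant groups of day 16, and the same held for Xbp1, which ran from 10.58 (pairfed saline day 16) to 10.999 (pairfed adjuvant day 16). Xbp1 had the widest range in the hippocampus, from 10.23 (control saline day 16) to 11.15 (pairfed adjuvant day 16). Creld2 means lay between 7.08 and 7.70 in the prefrontal cortex, Manf means between 8.39 and 8.86, and their hippocampus means between 6.95 and 7.46 and between 8.66 and 8.97. The SD over rats of a group was 0.32 to 0.45 at the median of the 12 groups. For every gene and tissue each of the 11 neighbouring pairs in the order of means lay closer than the larger SD of the pair. Small gaps are to be expected among 12 ordered means.

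Repeat arrays show how much of that spread the measurement itself can give. From 6 RNA samples, 2 of the prefrontal cortex and 4 of the hippocampus, 2 to 9 arrays were made. The pooled SD between arrays of the same RNA was 0.45 for Herpud1, 0.31 for Xbp1, 0.72 for Creld2 and 0.61 for Manf in the prefrontal cortex, against 0.41, 0.35, 0.35 and 0.42 between rats of a group. In the hippocampus it was 0.40, 0.19, 0.86 and 0.31, against 0.35, 0.36, 0.53 and 0.33. The 9 arrays of 1 control adjuvant rat of day 16 spanned 5.75 to 8.07 for Creld2, a wider range than all 27 adjuvant rats of that day. Xbp1 in the hippocampus was the gene and tissue with the least repeat error, with 26.5% of the variance between rats of a group. For Herpud1 and Creld2 in both tissues and Manf in the prefrontal cortex the repeat arrays varied more than the rats did. For 3 of the repeat arrays, from 1 hippocampus, the label fields name different injections, and they entered only these SDs and the fit with repeats averaged.

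**Figure D4:**
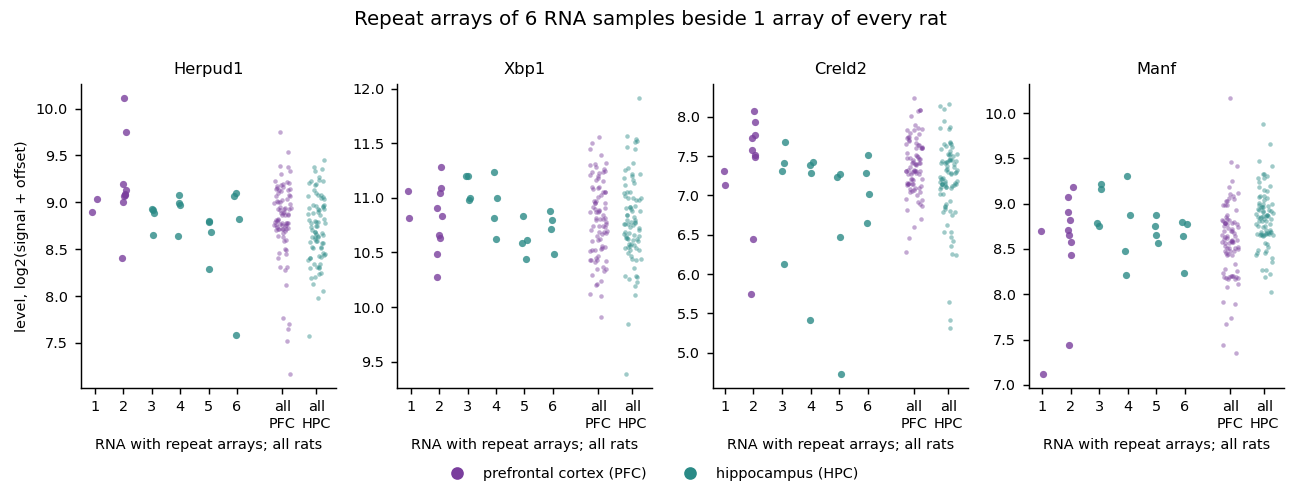
Levels as log2(signal + offset) on the y axis for the repeat arrays of 6 RNA samples (columns 1 to 6) beside 1 array of every rat (right), with the prefrontal cortex in purple and the hippocampus in teal. The Creld2 repeats of 1 control adjuvant rat span 5.75 to 8.07, while its Xbp1 repeats span 10.27 to 11.28.

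The median differences of the other lists of the pathway lay near 0. Of 19 measured ER chaperone genes, 11 were higher in the prefrontal cortex of adjuvant rats at day 16 (median 0.04, all probes 0.0016) and 0 were called. Hspa5, which encodes BiP, the main ER chaperone, differed by 0.15 ± 0.10, its cochaperone gene Dnajc3 by 0.16 ± 0.10, Hyou1 by 0.16 ± 0.10 and Dnajb11 by -0.17 ± 0.11. Of 15 genes of ER-associated degradation 6 were higher (median -0.0020), with Nploc4 at 0.28 ± 0.14 and Ube2j2 at -0.10 ± 0.08. Of the 8 sensor and protease genes 3 were higher (median -0.03), with Mbtps2, which encodes the site-2 protease that cleaves ATF6, at -0.24 ± 0.15, the ATF6 gene Atf6 at 0.16 ± 0.11 and the PERK gene Eif2ak3 at -0.23 ± 0.18. The gene of IRE1 is not among these 8. The targets of the PERK branch had 9 of 15 higher (median 0.02), with Ddit3, which encodes CHOP, at 0.13 ± 0.09. Genes of ER import and transport had 8 of 14 higher (median 0.03), with the translocon gene Sec61a1 at 0.24 ± 0.11. Heat shock genes outside the ER had 7 of 9 higher (median 0.02), with the small heat shock gene Hspb1 at 0.17 ± 0.14. The figure names this list cytosolic, but its members Hspd1 and Hspe1 encode mitochondrial chaperones. No gene of these 6 lists was called. Hyou1, Nploc4, Mbtps2, Atf6 and Sec61a1 had low signal, with mean levels of 5.03 to 5.57. That of Creld2, the lowest of the 4 selected genes, was 7.38. The median of the 4 selected genes was 0.31, but this comparison chose them, so nothing is read from its distance to the list medians.

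In the hippocampus at day 16 the same lists had medians from -0.02 to 0.08, again with 0 called. The chaperones had 11 of 20 higher, with the BiP exchange factor gene Sil1 at 0.35 ± 0.14 (adjusted p = 0.659), and the degradation genes 7 of 15, with Sel1l, which encodes a scaffold of the degradation complex, at 0.32 ± 0.14 (adjusted p = 0.705). Sec31a, a coat gene of vesicles that leave the ER, was the farthest of these genes from 0, at -0.55 ± 0.16 (adjusted p = 0.412). Its mean level was low, at 5.79. At day 39 the 6 lists had medians from -0.05 to 0.11 over both tissues and 0 called. Hspb1 in the prefrontal cortex had the smallest p there, at 0.47 ± 0.13 (adjusted p = 0.481). Sdf2l1, an ER chaperone gene with a low mean level of 5.67 in that tissue, differed by 0.37 ± 0.13.

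**Figure D5:**
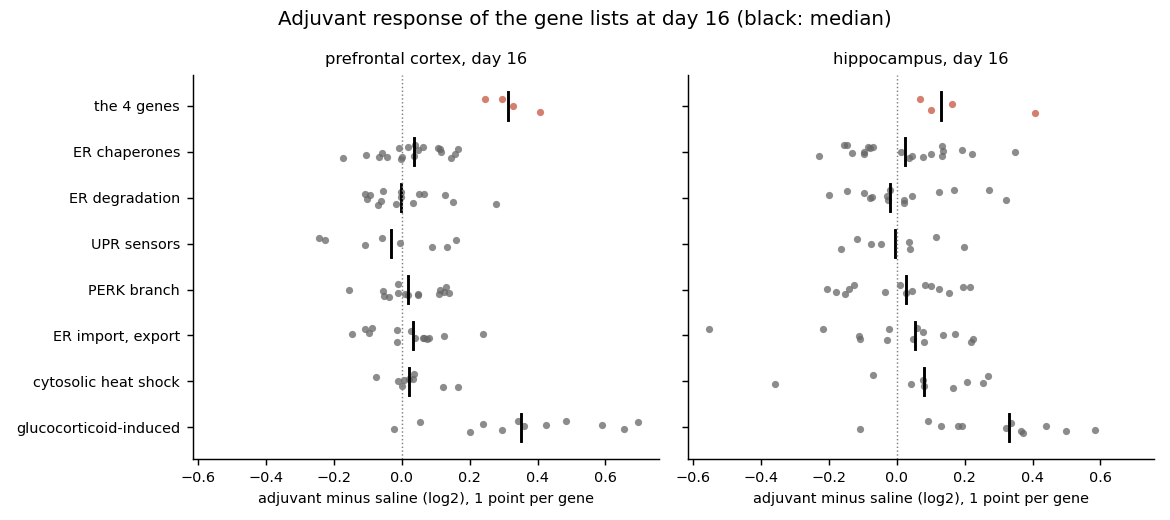
Each point is 1 gene, placed by its adjuvant minus saline difference at day 16 in log2, in the lists named on the left, and black bars are list medians. The 4 selected genes lie at 0.25 to 0.41 in the prefrontal cortex, where the 6 ER and heat shock lists centre near 0 and the glucocorticoid-induced list centres at 0.35. The prefrontal cortex values chose the 4 genes, so their place beside the lists there is a description.

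Genes with the same letters in their promoters were also looked at, a list formed after the values were known. Besides the 3 genes above, 35 genes had an ERSE or ERSE-II in their window, and 21 of them were measured. In the prefrontal cortex at day 16, 10 of the 21 were higher in adjuvant rats (median -0.0080, all probes 0.0016) and 0 were called. They include the chaperone genes Hspa5, Calr (0.12 ± 0.12), Canx (0.06 ± 0.16) and Hsp90b1 (-0.01 ± 0.12). In the hippocampus 11 of 21 were higher (median 0.0098) and 0 were called.

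Genes of 4 other lists were called in the same prefrontal cortex comparison, in which 0.131% of all probes were. Of 12 measured glucocorticoid-induced genes 11 were higher in the prefrontal cortex of adjuvant rats at day 16 (median 0.35) and 3 were called: Nfkbia (0.59 ± 0.13), Sgk1 (0.48 ± 0.11) and Sult1a1 (0.70 ± 0.16). The summed level of that list, as a log2, ran from 13.14 to 13.99 in adjuvant and from 12.98 to 13.51 in saline rats. Of the blood markers 3 of 4 were higher and 2 called, with summed levels of 13.65 to 15.35 against 13.36 to 14.54. The hemoglobin genes Hba-a1, Hbb and Hbb-b1 were detected on every array of the comparisons and the red cell gene Alas2 on 4 of 87. Of the endothelial markers 5 of 6 were higher and 2 called (11.03 to 12.19 against 10.57 to 11.88), with the von Willebrand factor gene Vwf at 0.91 ± 0.14. Of the 6 meningeal markers 3 were higher and 1 called, the matrix protein gene Mgp (0.61 ± 0.13). Of 11 immediate early genes 10 were higher and 0 called (median 0.18), with 9 higher in control, 8 in pairfed and 3 in ethanol rats. In the hippocampus at day 16, where 0.0587% of all probes were called, the 12 glucocorticoid-induced genes had 11 higher and 0 called, the blood markers 5 of 5 higher and 2 called (summed levels 13.54 to 14.87 against 12.49 to 14.22), and the endothelial markers 4 of 6 higher and 2 called (10.95 to 11.95 against 10.80 to 11.58). There the microglia markers had 4 of 6 higher and 0 called (summed levels 11.99 to 13.23 against 11.95 to 12.80), with the complement genes C1qb at 0.39 ± 0.13 and C1qa at 0.34 ± 0.12. The oligodendrocyte markers had 5 of 5 higher and 0 called (12.32 to 14.14 against 11.83 to 13.65), with the myelin gene Mobp at 0.56 ± 0.23. Plasma cells carry much Xbp1, and the 3 plasma cell markers Sdc1, Mzb1 and Tnfrsf17 were each detected on 3 or fewer of the arrays of a tissue. With hemoglobin signal as a covariate the day 16 differences in the prefrontal cortex were 0.35 for Herpud1, 0.44 for Xbp1, 0.26 for Creld2 and 0.32 for Manf, and that of Xbp1 in the hippocampus was 0.36. Hemoglobin signal was itself higher in adjuvant rats (Hbb-b1 0.82 ± 0.16 in the prefrontal cortex), so this fit cannot set blood and injection apart. The number of detected probes ran from 8890 to 10949 in adjuvant and from 8954 to 10940 in saline rats, and as a covariate it left 0.40, 0.34, 0.28 and 0.27 in the prefrontal cortex. The part of glucocorticoid-induced genes and of blood, plasma, endothelial, meningeal, microglial and oligodendrocyte cells in the differences was not tested. In whole tissue, more cells that carry an mRNA and more of it per cell cannot be told apart.

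Correlations from rat to rat between the 4 genes were low. The repeat arrays of Herpud1 and Creld2, and of Manf in the prefrontal cortex, varied more than the rats did, so a low value here does not show that the mRNAs vary apart. After group and chip were removed, the 12 correlations between members (6 pairs in each tissue) lay between -0.18 and 0.22. The highest were those of Herpud1 with Manf, at r = 0.22 over 87 prefrontal cortex samples (rho = 0.20, permutation p = 0.0394, adjusted p = 0.33) and 0.21 over hippocampus samples (rho = 0.20, permutation p = 0.055, adjusted p = 0.33, 84 rats). Without the 2 rats farthest from the median of Herpud1 they were 0.21 and 0.19. On single chips the first ran from -0.63 to 0.69 and was positive on 7 of 8, and the second from 0.04 to 0.53 on 8 of 8. Between Xbp1 and Herpud1 r was 0.03 (prefrontal cortex) and -0.18 (hippocampus), and none of the 12 passed adjustment. Between the tissues of a rat, r was -0.09 for Herpud1 (rho = -0.04), -0.07 for Xbp1 (rho = -0.13), -0.05 for Creld2 (rho = 0.12) and 0.12 for Manf (rho = 0.16) over 84 rats, each with a permutation adjusted p of 0.658. Without the 2 rats farthest from the median they were -0.07, -0.04, -0.05 and 0.18, and the median r over 14441 probes was 0.029. Of 32 correlations with the immediate early, glucocorticoid-induced and hemoglobin scores and the number of detected probes none passed adjustment. The lowest adjusted p was 0.0771, for Xbp1 in the hippocampus with the immediate early score (r = 0.31, rho = 0.30) and for Creld2 there with the number of detected probes (r = 0.32, rho = 0.23). Without 2 rats these were 0.31 and 0.24, and they were positive on 6 and 7 of 8 chips.

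The genes whose residuals followed each gene most closely were picked by the highest Pearson r over the rats, and each such list is the top of 15249 or 15319 values. In the prefrontal cortex (87 rats) they were Slc39a3, Tifa, M6pr, Ckb and Psen2 for Herpud1 (r = 0.45 to 0.50). For Xbp1 they were App, Kpna1, Klhl24, Mark2 and Mycbp2 (0.51 to 0.53). For Creld2 they were Cyth2, Psma7, Nprl3, Gtf2b and Myh7 (0.46 to 0.49), and for Manf S100a13, Mrpl45, Gzmf, Mapk15 and Psmd13 (0.46 to 0.49). In the hippocampus (84 rats) Herpud1 had Swi5, Ccs, Rpl10a, Atl2 and Vom2r31 (0.43 to 0.52), and Xbp1 had Atg9a, Ampd2, Jakmip1, Bicd2 and Fam81a (0.51 to 0.59). Creld2 had Ip6k1, Phf20, Mdga2, Kat7 and Ppfia3 (0.47 to 0.57), and Manf had Lyrm2, Serf1, Tial1, Psmb10 and Lamtor5 (0.52 to 0.57). No selected gene was among the 5 of another. Xbp1 had the most alike profile in both tissues. Across 14441 probes its correlations in one tissue had r = 0.31 with those in the other, against 0.09 for Herpud1, 0.11 for Creld2 and 0.10 for Manf; probes share their libraries and are not independent. After the values were seen, the ER lists were looked up. For Xbp1 the degradation gene Sel1l had r = 0.47 in the hippocampus and Syvn1, which encodes the ubiquitin ligase of the same complex, 0.43 in the prefrontal cortex, and 5 of 15 degradation genes in the hippocampus and 3 of 15 in the prefrontal cortex lay above the 95th percentile of all probes. For the other 3 genes 0 or 1 of the 15 degradation genes did so in a tissue. In the other lists Xbp1 had 2 of 20 (hippocampus) and 1 of 19 (prefrontal cortex) chaperones there, and 2 and 1 of 9 heat shock genes. In each tissue it had 1 of 8 sensors, 1 of 14 import and transport genes and 0 of 15 PERK targets. Xbp1 also had 2 of 12 glucocorticoid-induced genes in the hippocampus and 0 of 12 in the prefrontal cortex, and 1 of 11 immediate early genes in each. The other 3 genes had 0 to 3 in each of these lists. Their highest counts were 3 of 15 PERK targets for Creld2 and 3 of 19 chaperones for Manf, both in the prefrontal cortex.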

How the data were processed

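Total RNA of the prefrontal cortex and hippocampus was amplified (250 ng per sample) and hybridized to Illumina rat BeadChips, per the labels. The deposited raw table holds, for each array and probe, a log2 signal without normalization and a detection p-value, per the file headers and the values. The authors' deposited value table holds log2 values that rank probes exactly as the raw columns do (Spearman 1) with a near-equal median in every array of a tissue (7.13 and 7.19), with their making not given in the sources used here.

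Raw signals were background-corrected with normexp from the detection p-values and quantile-normalized over all 192 arrays with an offset of 16 (neqc, limma 3.58.1, R 4.3.3). A probe was tested where its detection p was below 0.05 on 5 or more rats of the tissue. One limma model per tissue held 12 groups and the chip as a fixed block, with 1 array per rat, and p-values were adjusted by Benjamini-Hochberg over all probes tested. Probes with an adjusted p below 0.05 were called. Contrasts built from the day 16 prefrontal cortex arrays carry no test for the 4 genes, with 1 exception. The diet contrasts between saline rats of both days were tested, and they include the day 16 saline arrays. Arrays give no read depth, and the number of rats limits the precision. Of 22502 probes, 13787 carry 1 gene symbol and 8715 none, and 13747 of the named probes matched the current gene table. Correlations used residuals after group and chip, with 100000 two-sided permutations. The tests were checked on simulated data.

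The 4 genes and the gene lists were chosen with earlier results of these data known. From each list 1 to 4 genes with the smallest p were named, and for each selected gene the 5 with the highest correlation; Calr, Canx, Hsp90b1, Vwf, Mgp, C1qb, C1qa, Mobp, Sel1l and Syvn1 in the correlations and the called genes of the glucocorticoid list were named after their values were seen. Alternatives covered background correction, scaling, the authors' values, the filter, the chip term, a replicate block, hemoglobin and detected probes as covariates, repeat arrays averaged, 2 arrays left out and each day 16 saline rat left out.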

Additional observations from a re-analysis of the deposited data

Results flagged for a closer look

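Of 96 groups (gene, tissue, diet, injection and day) tested for a rat that stood apart from the rest of its group, 10 held one, where chance gives about 1 in 20 groups. Of these, 7 stood low and 3 high. Herpud1 was low in the prefrontal cortex at day 39 in control saline replicate 5 (8.31, next 8.71), ethanol adjuvant replicate 3 (7.17, next 8.63) and pairfed saline replicate 6 (7.76, next 8.67). Creld2 was low in the hippocampus in control saline day 16 replicate 1 (6.26, next 7.15), ethanol adjuvant day 16 replicate 4 (5.65, next 7.01), pairfed adjuvant day 39 replicate 7 (5.41, next 6.86) and pairfed saline day 39 replicate 2 (5.32, next 7.29). The last 3 are the hippocampus arrays on which the Creld2 detection p was above 0.05, at 0.0727, 0.110 and 0.108. Manf was high in the hippocampus of ethanol adjuvant day 16 replicate 2 (9.66, next 9.08) and in the prefrontal cortex of control adjuvant day 39 replicate 4 (9.46, next 8.78) and ethanol saline day 39 replicate 2 (10.2, next 8.73). That last array detected the fewest probes, 7578. No group of Xbp1 held such a rat.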

How the results depend on the processing

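None of the 4 genes passed the test in any comparison that was tested, under any alternative run. The day 16 differences in the prefrontal cortex, given without a test, kept their sign under every alternative except Manf with the replicate block. With each day 16 saline rat left out in turn they ran from 0.32 to 0.45 for Herpud1, 0.30 to 0.38 for Xbp1, 0.21 to 0.34 for Creld2 and 0.21 to 0.29 for Manf, and in the hippocampus from 0.06 to 0.15, 0.34 to 0.47, 0.01 to 0.10 and 0.12 to 0.21. The Xbp1 hippocampus value had an adjusted p of 0.0939 to 0.569 in those fits and of 0.257 to 0.99 in the others, and was 0.14 with median scaling. The replicate numbers were not taken as pairs, with a median correlation of same-numbered rats of -0.025 (prefrontal cortex) and 0.039 (hippocampus). In the same order, 3.65% and 25.7% of same-numbered pairs had r above 0.1. An array was most alike one of its own number for 7 of 87 and 27 of 84 arrays. In the prefrontal cortex the numbers rise in the order of the chips within every group. There the replicate block and the chip overlap and are hard to tell apart. Whether the numbers mark a shared batch beyond the chip was not tested. With the replicate block Manf in the prefrontal cortex was -0.19 at day 16. At day 39 Creld2 there was 0.054 and Xbp1 in the hippocampus -0.025. In that fit the day 16 calls went from 20 to 0 (prefrontal cortex) and from 9 to 13 (hippocampus). Median scaling, under which the median of all hippocampus probes lay at -0.12 at day 16 and -0.099 at day 39, turned hippocampus values to -0.16 (Herpud1), -0.13 (Creld2) and -0.10 (Manf; -0.0998) at day 16 and -0.21 (Herpud1; -0.207), -0.213 (Xbp1), -0.15 (Creld2) and -0.16 (Manf) at day 39, and Creld2 in the prefrontal cortex at day 39 to 0.028; it gave 16 hippocampus calls. The hemoglobin covariate gave -0.012 for Herpud1 in the prefrontal cortex at day 39, -0.086 for Creld2 and -0.0056 for Manf in the hippocampus at day 16 and -0.0056 for Creld2 at day 39, with 4 day 16 calls (prefrontal cortex) and 1 (hippocampus). Near 0, Herpud1 at day 39 was -0.00085 without a chip term (prefrontal cortex) and -0.0020 with repeats averaged (hippocampus), and Xbp1 there -0.0026 with detected probes as a covariate. The correlation of Xbp1 with Creld2 in the hippocampus was 0.0061 and that of Creld2 with Manf 0.024 with detected probes removed, the latter 0.015 on the authors' values. Without background correction and on the authors' values, the saline ethanol minus control value of Manf in the prefrontal cortex was 0.011 and 0.011, that of Herpud1 in adjuvant rats -0.00077 and -0.0012 (both added after the data were seen), and the day 39 ethanol minus pairfed value of Herpud1 in the hippocampus 0.0057 and 0.0057. With repeats averaged, also added later, the day 16 ethanol minus control contrast of Xbp1 in the prefrontal cortex was 0.038. The causes were not tested. All other values kept their sign.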
